A study of Homo sapiens with 3 samples.

Results

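The respiratory chain genes were taken by symbol from the count tables of CAMA-1 spheroids. The rule took every row whose symbol starts NDUFA, NDUFB, NDUFC, NDUFS, NDUFV, UQCR, COX4I, COX5, COX6, COX7, COX8, ATP5, MT-ND, MT-CO, MT-ATP or MT-CYB, together with SDHA, SDHB, SDHC, SDHD and CYC1, and left out 4 rows that are pseudogenes or antisense transcripts. It found 111 of the 22499 rows that carry a symbol. Of these, 86 encode nuclear subunits (37 of complex I, 4 of complex II, 9 of complex III, 19 of complex IV and 17 of complex V) and 13 are the mitochondrial mRNAs (7 of complex I, 1 of complex III, 3 of complex IV and 2 of complex V). The remaining rows were the 8 NDUFAF assembly factors of complex I, the ATP synthase inhibitor ATP5IF1, the gene copy ATP5MGL and 2 readthrough transcripts.

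The respiratory chain is built in the inner mitochondrial membrane from proteins of both genomes. Complexes I and II pass electrons from NADH and succinate to coenzyme Q, complex III passes them to cytochrome c, complex IV passes them to oxygen, and complex V uses the resulting proton gradient to make ATP. Complex II is the only one with no subunit from the mitochondrial genome, so every other complex needs messages from both.

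CAMA-1 is an estrogen receptor-positive breast cancer cell line. Spheroids were seeded with 2000 cells that were all sensitive, 50% sensitive and 50% resistant, or all resistant to the CDK4/6 inhibitor ribociclib, and all 3 cultures received 1 µM ribociclib (labelled DMSO + 1 uM ribociclib) for 11 days. Sensitive cells carried Venus and resistant cells, derived by prolonged ribociclib exposure of the same line, carried mCherry. Each culture gave 1 library of cells that had been frozen and thawed, read from the 3' end of transcripts, with unique molecular identifiers (UMIs) counted.

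The deposited annotation divides the kept cells into 4 populations: 3329 sensitive cells from monoculture, 2059 sensitive and 6292 resistant cells from the coculture, and 7557 resistant cells from monoculture, with a median of 27622 to 35443 UMIs per cell. The luminal markers ESR1, GATA3, KRT8, KRT18, KRT19 and EPCAM were present in all 4, summing to between 7570 and 9530 counts per 1000000 UMIs (CPM), while 13 markers of basal, stromal, endothelial and blood cells summed to between 2.82 and 7.17 CPM. Between 2 and 6 of those 13 were at 0 in a population. Venus was at 0 in both resistant populations and mCherry at 0 in both sensitive ones, which the annotation itself used to sort cells. Where 4 values of a gene are given, they run from sensitive cells, monoculture before coculture, to resistant cells, coculture before monoculture. Between 82 and 108 cell barcodes per library also occurred in another library. The annotation kept 8351 of the 12364 coculture barcodes within all 3 limits that the study set per barcode (gene number, UMI number, mitochondrial share), against 3329 of 3338 in the sensitive and all 7557 in the resistant monoculture, and the part of this unequal selection in the coculture over monoculture values was not tested. With 1 library per condition no test between conditions exists, so "higher" and "lower" below describe these libraries. Intervals are exact 95% intervals that cover counting error only, except that of a share of cells, which covers the draw of cells within 1 library. Culture and library cannot be told apart in any comparison of coculture with monoculture. Lineage and library cannot be told apart in the comparison between the monocultures. Fewer mitochondria, less RNA per mitochondrion and a change in the other RNA of a cell cannot be told apart either.

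The mitochondrial mRNAs made up a larger part of the RNA in sensitive monoculture cells than in the other populations. Summed over cells, the 13 mRNAs took 20.3% of UMIs there (20.25% to 20.27%), 17.6% in sensitive coculture cells, 15.9% in resistant coculture cells and 16.1% in resistant monoculture cells. The sensitive populations stood above both resistant ones, and the resistant populations nearly coincided. On a log2 scale the ratio of the sums was -0.33 for resistant over sensitive monoculture cells, -0.20 for sensitive cells, coculture over monoculture, -0.14 for resistant over sensitive cells within the coculture, and -0.016 for resistant cells, coculture over monoculture.

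**Figure D1:**
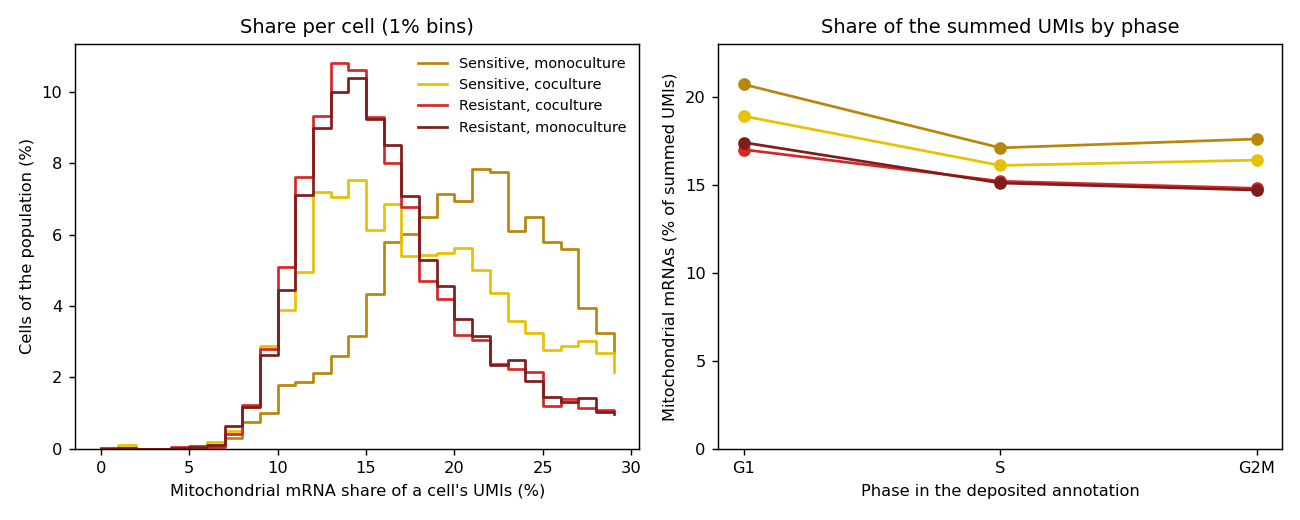
Mitochondrial mRNA share in the 4 populations. Left, percent of cells (vertical) by the mitochondrial mRNA share of a cell's UMIs in 1% bins (horizontal, cells of 30% or more were not kept); right, percent of summed UMIs in G1, S and G2M cells. Sensitive monoculture cells lie furthest to the right, with a median of 20.9%, and every population is highest in G1.

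The same order held cell by cell. The median mitochondrial share was 20.9% in sensitive monoculture cells (quartiles 17.2% and 24.3%), 17.3% in sensitive coculture cells, 15.2% in resistant coculture cells and 15.4% in resistant monoculture cells. The authors kept only cells under 30%, and 21.3% of the kept sensitive monoculture cells had a share of 25% or more (exact binomial interval 19.9% to 22.7%), against 5.88% of resistant coculture cells. The limit touched the cultures unequally, since among barcodes that met the limits on genes and UMIs, 1963 of 5301 in the sensitive monoculture and 987 of 8544 in the resistant monoculture had a share of 30% or more. With those barcodes included the summed shares were 28.7% and 18.5%, a log2 ratio of -0.63. Among kept cells under 20% the ratio was -0.12. In those cells the gap in sensitive cells, coculture over monoculture, went from -0.20 to -0.11 and the gap within the coculture from -0.14 to -0.022. The populations also differed in phase. G1 cells were 2963 of 3329 in the sensitive monoculture and 3781 of 7557 in the resistant monoculture. In the coculture they were 1138 of 2059 sensitive and 3125 of 6292 resistant cells. In G1 cells the ratio was -0.13 in sensitive cells, coculture over monoculture, and -0.25 between monocultures. The sizes of these 3 gaps between sums therefore depended on the cells kept, while their direction did not across the settings tried. The median of the 13 single ratios within the coculture was -0.0061 over kept cells and 0.10 in cells under 20%. The limit was lifted for the monocultures only. In the coculture, 3540 of 15904 barcodes that met the limits on genes and UMIs had a share of 30% or more.

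The 13 mRNAs did not move together. MT-ND3, a membrane-arm subunit of complex I, was at 15700 CPM in sensitive monoculture and 25300 CPM in sensitive coculture cells, and at 17700 CPM in resistant monoculture and 27500 CPM in resistant coculture cells. Both coculture populations were above both monocultures, by 0.69 on the log2 scale in sensitive cells (1.61-fold) and 0.63 in resistant cells. Its share of all mitochondrial mRNA UMIs went from 7.76% to 14.4% and from 11.0% to 17.2%.

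**Figure D2:**
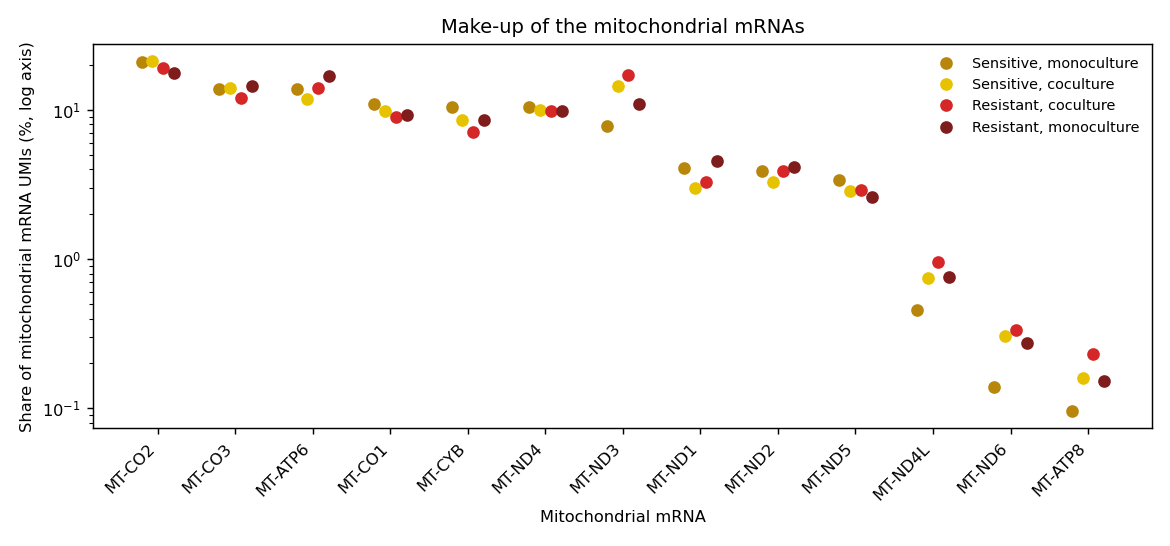
Make-up of the mitochondrial mRNAs. Each point is the percent of mitochondrial mRNA UMIs (log axis) held by 1 of the 13 mRNAs in 1 of the 4 populations, with mRNAs ordered by their share in sensitive monoculture cells. MT-ND3 is 14.4% and 17.2% in the 2 coculture populations and 7.76% and 11.0% in the monocultures.

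The stretch of MT-ND3 next to the poly(A) tail, near which a 3' library reads, is shown because the share of this mRNA moved by more percentage points than that of any of the other 12 in both lineages. It is chrM:10285-10404 on the plus strand of GRCh37, the last 120 bases of a 346-base gene.

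MT-ND3: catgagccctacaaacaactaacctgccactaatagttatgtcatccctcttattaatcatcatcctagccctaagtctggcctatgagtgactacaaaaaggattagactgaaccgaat

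The other 3 mRNAs called higher in sensitive cells in coculture were MT-ATP8, MT-ND4L and MT-ND6, where a call means a log2 ratio of at least 0.32 either way (12.8% of all genes counted were called higher there and 19.5% lower). Called lower were MT-ND1 (-0.66), MT-CYB (-0.49), MT-ND2 (-0.45), MT-ND5 (-0.44), MT-ATP6 (-0.41) and MT-CO1 (-0.35). Of these, MT-ATP6 and MT-CO1 came to -0.28 and -0.26, inside the limit, in cells with a mitochondrial share under 20%. In G1 cells MT-CO1 came to -0.25, also inside it. MT-ATP8, an ATP synthase membrane subunit, was at 195 and 284 CPM in sensitive cells and 371 and 247 CPM in resistant cells, and so was higher in coculture in both lineages (log2 0.54 and 0.59), and it was the 1 mRNA called higher in resistant than in sensitive cells within the coculture (0.38). MT-ND4L was at 925, 1310, 1520 and 1230 CPM. MT-ND6, the only mRNA made from the other strand of the mitochondrial genome, was at 284, 539, 537 and 445 CPM, a log2 ratio of 0.92 in sensitive cells and 0.27 in resistant cells. These values carry an ambiguity that the sequence shows. MT-ATP8 and MT-ATP6 lie on 1 joint transcript and overlap over 46 bases (chrM:8527-8572, plus strand, GRCh37), in which a read cannot be given to 1 of them by position. MT-ND4L and MT-ND4 overlap over 7 bases (chrM:10760-10766).

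MT-ATP8 and MT-ATP6: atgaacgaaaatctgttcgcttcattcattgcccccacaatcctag
MT-ND4L and MT-ND4: atgctaa

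MT-CYB of complex III and MT-CO1, MT-CO2 and MT-CO3 of complex IV had lower levels in both resistant populations than in both sensitive ones. So did MT-ND4 and MT-ND5 of complex I. The share of all genes with this order was not counted. The summed mitochondrial mRNAs had the same order, so it is not particular to these messages. It was not examined in cells with a mitochondrial share under 20%. MT-CYB, cytochrome b of complex III, was at 21300 and 15100 CPM in sensitive cells and 11300 and 13800 CPM in resistant cells, a log2 ratio of resistant over sensitive cells of -0.63 between the monocultures and -0.42 within the coculture. MT-CO1, which holds the oxygen-reducing centre, was at 22000, 17200, 14300 and 15000 CPM. MT-CO2 was at 42000, 37200, 30300 and 28500 CPM. Within the coculture, where both lineages shared 1 library, MT-CO1, MT-CO2 and MT-CO3 had log2 ratios of resistant over sensitive cells of -0.27, -0.29 and -0.35, of which the last passed the limit on the main scale, whereas MT-ATP6 (0.10), MT-ND2 (0.11) and MT-ND3 (0.12) were above 0 and under the limit. MT-CO3 was at 28000, 24600, 19300 and 23300 CPM, and MT-ATP6, of the proton channel of ATP synthase, at 27800, 21000, 22500 and 27000 CPM. The complex I messages MT-ND4 and MT-ND5 were at 21300, 17500, 15700 and 15800 CPM and at 6840, 5050, 4630 and 4180 CPM, both highest in sensitive monoculture cells, with -0.43 and -0.71 between the monocultures. MT-ND2 was at 7900, 5800, 6240 and 6670 CPM. In cells with a mitochondrial share under 20%, MT-CO1 and MT-ND4 came to -0.29 and -0.26 between monocultures, inside the limit. In those cells MT-CO3 and MT-CYB came to -0.26 and -0.30 within the coculture, also inside the limit. MT-CO2 there reached -0.32, just past the limit, per nuclear UMI. MT-ND1, at 8330, 5260, 5260 and 7320 CPM, was lower in coculture in both lineages, with log2 ratios of -0.66 in sensitive and -0.48 in resistant cells.

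The ratios of single nuclear-encoded subunits had medians close to 0, while their summed CPM differed in the opposite direction to the mitochondrial sums, by 0.22 (log2) in sensitive cells in coculture, 0.14 in resistant cells in coculture, 0.13 between monocultures and 0.043 within the coculture. Both sums share 1 total of UMIs, so a lower mitochondrial share raises nuclear CPM by itself. Per nuclear UMI the 4 differences were 0.18, 0.13, 0.058 and 0.014. A gene entered the counts below when its mean over the 2 populations compared was at least 10 CPM, which 79 of the 86 nuclear subunits and all 13 mitochondrial mRNAs met, and a gene was called when it differed by at least 0.32 on the log2 scale of CPM + 1. The 7 that stayed out were COX4I2, COX6A2, COX6B2, COX7A1, COX7B2, COX8C and NDUFA4L2, of which several are known from muscle, lung or testis. NDUFA4L2 reached 0.197 CPM, COX6B2 0.282 CPM, and COX7A1 had 0 UMIs in every population, which allows at most 0.0423 CPM where depth was lowest (3 counts). The partner genes of these subunits were all present, with COX4I1 at 1450, 1530, 1600 and 1550 CPM, COX6A1 at 320, 278, 299 and 268 CPM, and NDUFA4 at 1410, 1250, 1230 and 1180 CPM. COX6B1 (965 to 1340 CPM), COX7A2 (635 to 718), COX7B (762 to 1100), COX8A (331 to 386) and the hinge subunit UQCRH (662 to 797) were present in every population as well.

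In sensitive cells, coculture over monoculture, 13 nuclear subunits were called higher and 7 lower, and the median of the 79 was -0.0029. Of all 6862 genes counted, 12.8% were higher and 19.5% lower with a median of -0.057, beside 16.5% and 8.86% of the subunits. In resistant cells, 9 were higher and 1 lower (background 9.25% and 2.61%), with a median of 0.030. Between the monocultures, resistant over sensitive, 14 were higher and 8 lower (background 16.3% and 25.7%), with a median of 0.052 against -0.068 for all genes. Within the coculture, 3 were higher and 1 lower (background 7.21% and 9.72%), with a median of 0.043. The split depended on the scale. With TMM factors, which moved the median of all genes between monocultures from -0.068 to 0.041, 22 subunits were higher and 4 lower there (23.4% and 18.8% of all genes), and 6 were higher and 9 lower in resistant cells in coculture (5.06% and 7.70% of all genes). Per nuclear UMI it was 8 higher and 11 lower between monocultures (13.2% and 31.9% of all genes), and 11 and 13 in sensitive cells in coculture (10.8% and 23.8%). Of the 13 mitochondrial mRNAs, 4 were higher and 6 lower in sensitive cells in coculture, 2 higher and 1 lower in resistant cells in coculture, 3 higher and 5 lower between monocultures, and 1 higher and 2 lower within the coculture. The counts between lineages depended on the mitochondrial limit on cells. With barcodes of 30% or more included, 0 mRNAs were higher and 9 lower between monocultures, where MT-ATP8, MT-ND4L and MT-ND6 came to 0.0010, 0.14 and 0.28, and MT-ATP6, MT-CO3, MT-ND1 and MT-ND2 to -0.39, -0.63, -0.49 and -0.52. The same barcodes made 31 nuclear subunits higher and 1 lower there (22.3% and 25.2% of all genes). In cells under 20%, 4 mRNAs were higher and 3 lower between monocultures (13.3% and 27.6% of all genes), where MT-ND3 went from 0.17 to 0.35, past the limit. Within the coculture 1 was higher and 0 lower in those cells (7.07% and 10.9% of all genes).

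**Figure D3:**
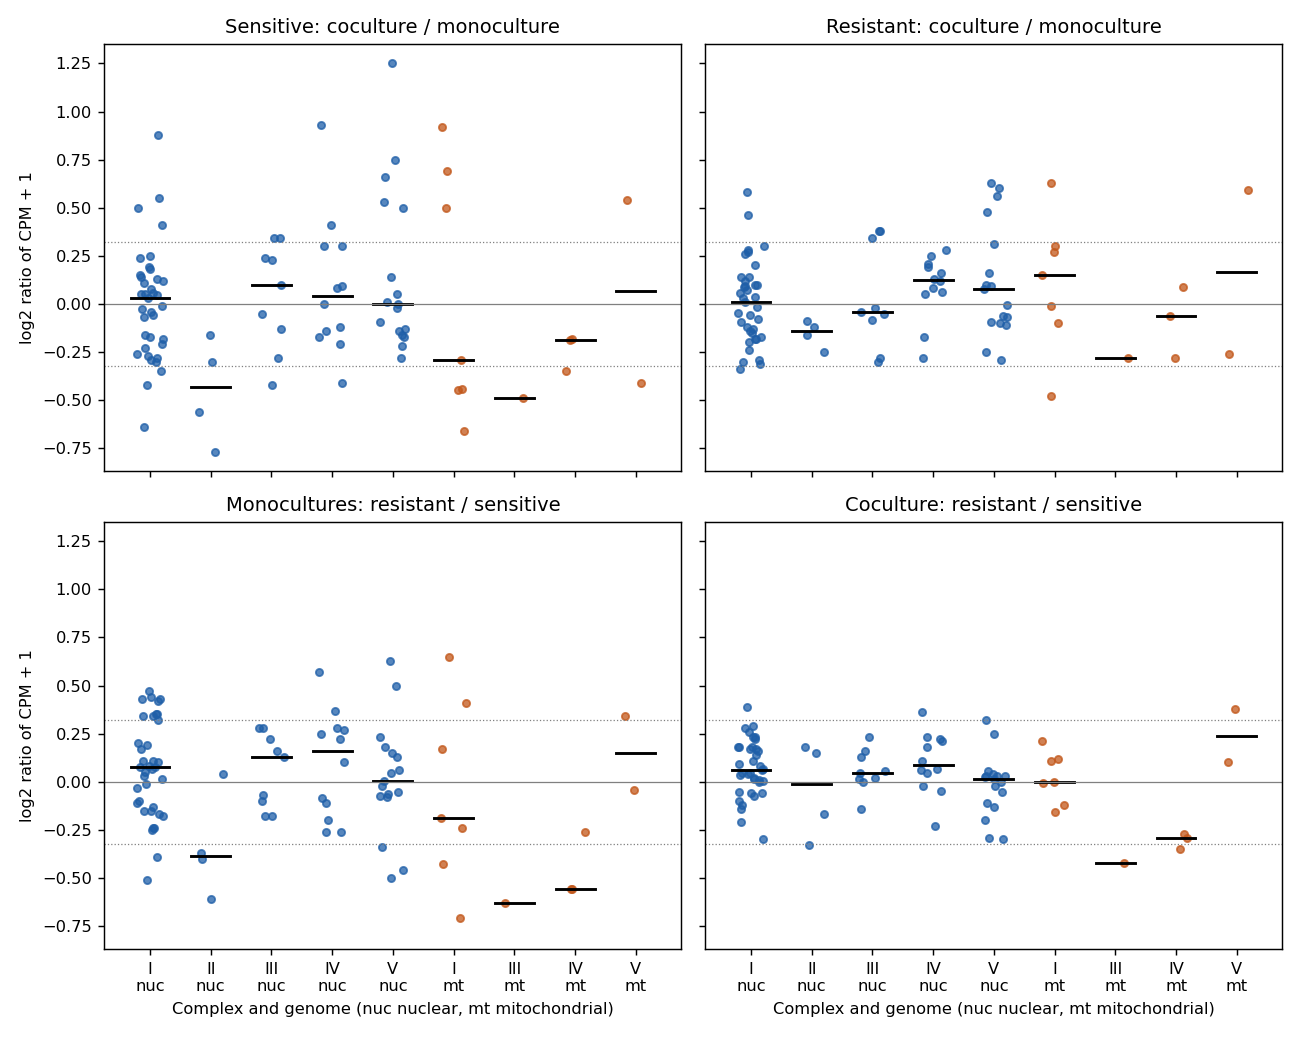
Log2 ratios of CPM + 1 for each nuclear subunit (blue) and mitochondrial mRNA (orange) by complex in the 4 comparisons. Points are genes averaging 10 CPM or more, black bars medians and dotted lines the limits at 0.32 either way. In sensitive cells, coculture over monoculture, nuclear subunits reach down to -0.77, and complex II sits low there and between the monocultures.

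Summed levels of the nuclear subunits were higher in coculture. All nuclear subunits together took 40700 and 47500 CPM in sensitive cells and 49000 and 44600 CPM in resistant cells. By complex, the coculture sum of sensitive cells differed from monoculture by 0.38 (log2) for complex IV, 0.29 for complex V, 0.16 for complex III and 0.051 for complex I, and by -0.46 for complex II. Per nuclear UMI the difference for complex I was 0.0042. The same sums in resistant cells differed by 0.13, 0.25, 0.15 and 0.039, and by -0.13 for complex II. The medians of single members of complexes IV and V, 0.041 and -0.0029 in sensitive cells, were far below those sums. Much of the difference between the sums lay in COX6C (3070 and 5830 CPM), ATP5F1E (1830 and 2890), ATP5ME (459 and 1090) and COX7C (1460 and 1930), while NDUFA4 (1410 and 1250) and ATP5F1B (769 and 696) were lower in coculture.

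ATP5ME, the small subunit e of the ATP synthase membrane sector, had the highest ratio in sensitive cells. It was at 459 and 1090 CPM in sensitive cells and 1080 and 710 CPM in resistant cells. The coculture values nearly coincided and both were above the monocultures, by 2.38-fold in sensitive cells (log2 interval 1.23 to 1.27) and 1.52-fold in resistant cells. COX6C, a small accessory subunit of complex IV, was at 3070, 5830, 4960 and 4560 CPM, 1.90-fold higher in coculture in sensitive cells and 1.09-fold in resistant cells. NDUFB1, an accessory subunit of complex I, was at 151, 279, 315 and 210 CPM (1.84-fold, and log2 0.58 in resistant cells). ATP5MPL, a small proteolipid of the ATP synthase, was at 620, 1040, 1090 and 700 CPM (1.68-fold and 1.55-fold). ATP5F1E, the epsilon subunit of the catalytic head, was at 1830, 2890, 3620 and 2600 CPM (1.58-fold and 1.39-fold). These 5 share a short coding sequence, of 153 to 225 nucleotides, and ATP5F1E and ATP5MPL were taken up here by the same rule in other comparisons. Also called higher in sensitive cells were ATP5MD, ATP5MF, COX7C, NDUFA3, NDUFC1, NDUFV3, UQCR10 and UQCRQ, named after their values were seen. ATP5MD, NDUFA3, UQCR10 and UQCRQ were called higher in resistant cells too, beside UQCR11. The calls of complex III depended on the scale. With TMM factors UQCR10, UQCR11 and UQCRQ came to 0.31, 0.31 and 0.27 in resistant cells, and per nuclear UMI UQCR10 and UQCRQ both came to 0.29 in sensitive cells, all inside the limit.

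Coding length moved with the coculture ratio across the nuclear subunits as a whole, a property examined after the values were seen. Lengths came from an annotation of the same genome build and were found for all 79. In sensitive cells the median log2 ratio was 0.53 for the 7 subunits of up to 200 nucleotides, 0.30 for 15 of 200 to 300, -0.072 for 36 of 300 to 600, and -0.094 for 21 longer ones. In resistant cells the medians were 0.48, 0.21, -0.0085 and -0.11. Between the monocultures they were 0.18, 0.22, -0.017 and 0.052, and within the coculture, where the library is the same, they were 0.058, 0.059, 0.046 and 0.018. Spearman's rho between coding length and ratio over the 79 genes was -0.50 in sensitive cells, -0.72 in resistant cells, -0.12 between monocultures and -0.16 within the coculture, given as a description since the genes come from the same libraries. All 37 counted genes of up to 200 nucleotides, members included, had medians of 0.24 in sensitive and 0.28 in resistant cells in coculture. For all genes of 200 to 300 nucleotides the medians were 0.0086 and 0.063, and over all genes the rho was -0.017 and 0.23. With subunits of over 300 nucleotides alone, 57 genes, 1 was higher and 6 lower in sensitive cells (12.1% and 19.5% of all genes of that length) and 0 higher and 1 lower in resistant cells (8.83% and 2.66%). What length, library and coculture each contribute was not tested.

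**Figure D4:**
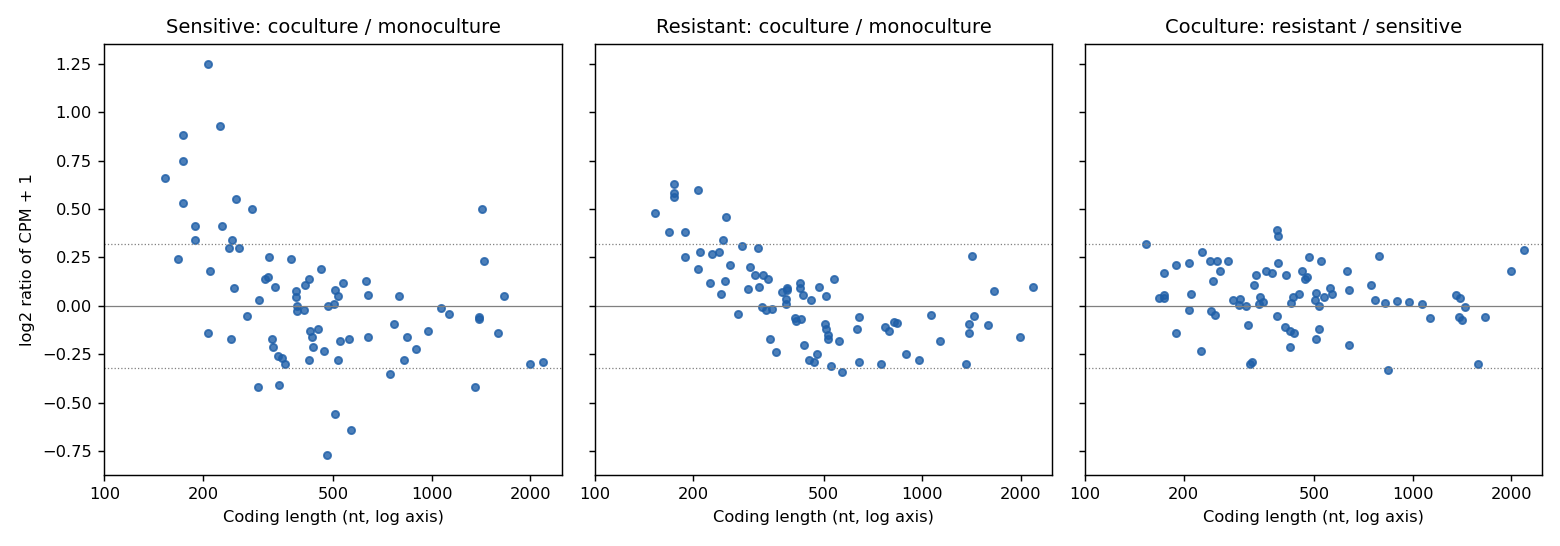
Log2 ratio of CPM + 1 (vertical) by coding length in nucleotides (horizontal, log axis) for the 79 nuclear subunits averaging 10 CPM or more. The 7 shortest have medians of 0.53 and 0.48 in the coculture over monoculture panels and 0.058 in the panel within the coculture.

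Complex II, where 2 of 4 subunits were called lower in sensitive cells in coculture (19.5% of all genes) and 3 of 4 between monocultures (25.7% of all genes), had a lower sum in coculture. SDHC, a membrane anchor, was at 227 and 153 CPM in sensitive cells and 136 and 148 CPM in resistant cells. Sensitive monoculture cells stood apart from the other 3 populations, with log2 ratios for SDHC of -0.56 in sensitive cells in coculture (interval -0.60 to -0.53) and -0.61 between monocultures. SDHD, the other anchor, was at 28.9, 16.5, 18.4 and 22.1 CPM, again highest in sensitive monoculture cells, with log2 ratios of -0.77 (interval -0.91 to -0.71) and -0.37. SDHB, the iron-sulfur subunit, was at 74.6, 66.5, 52.9 and 56.2 CPM and was lower in both resistant populations, with -0.40 between monocultures and -0.33 within the coculture. The latter came to -0.31 with TMM factors, -0.31 in cells with at least 2 transgene UMIs and -0.30 in G1 cells, inside the limit. SDHA, the flavoprotein with the succinate site, was at 43.0, 34.8, 39.5 and 44.2 CPM and was not called in any comparison on the main scale, though its -0.30 in sensitive cells in coculture became -0.34 per nuclear UMI. The median of the 4 was -0.43 in sensitive cells in coculture, -0.14 in resistant cells in coculture, -0.39 between monocultures and -0.011 within the coculture. Between monocultures SDHB and SDHD came to -0.29 and -0.27 with TMM factors and to -0.22 and -0.16 without the mitochondrial limit on cells, inside the limit for a call. SDHA and SDHC have close pseudogene copies, so a share of their reads may have been lost or split.

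Promoter windows were searched for 3 motifs, and 13 windows of members with the highest or lowest ratios of a comparison or of complex II were read in full. Of these, 5 held any of the letters and 8 held none. ATP5ME, SDHB and SDHD are printed as examples of the 5, chosen because they hold the letters, so they do not stand for the other windows. Each is 300 bases from RefSeq on GRCh38.p14, from 250 before to 50 after the gene's start: ATP5ME at chr4:674227-674526 and SDHB at chr1:17053983-17054282, both on the minus strand, and SDHD at chr11:112086623-112086922 on the plus strand. Capitals mark the letters searched on both strands: GCGCATGC, a core of the site of NRF1, a regulator of respiratory genes, CCGGAAG, a site of ETS factors such as GABPA, and AAGATGGC, a site of YY1. The motifs do not overlap one another in these windows, except that the NRF1 core in SDHD is read on both strands over shared bases.

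ATP5ME: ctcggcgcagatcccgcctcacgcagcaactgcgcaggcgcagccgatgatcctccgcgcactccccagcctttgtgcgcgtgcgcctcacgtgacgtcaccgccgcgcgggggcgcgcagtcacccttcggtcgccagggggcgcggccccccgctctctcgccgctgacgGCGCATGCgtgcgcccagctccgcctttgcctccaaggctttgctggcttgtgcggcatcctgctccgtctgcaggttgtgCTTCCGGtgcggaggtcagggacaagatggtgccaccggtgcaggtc
SDHB: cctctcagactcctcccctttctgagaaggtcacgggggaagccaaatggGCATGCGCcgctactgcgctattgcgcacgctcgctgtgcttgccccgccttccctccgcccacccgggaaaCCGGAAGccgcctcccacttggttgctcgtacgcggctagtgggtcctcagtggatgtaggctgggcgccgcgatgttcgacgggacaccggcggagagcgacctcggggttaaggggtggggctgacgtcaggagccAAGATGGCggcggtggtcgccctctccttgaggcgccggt
SDHD: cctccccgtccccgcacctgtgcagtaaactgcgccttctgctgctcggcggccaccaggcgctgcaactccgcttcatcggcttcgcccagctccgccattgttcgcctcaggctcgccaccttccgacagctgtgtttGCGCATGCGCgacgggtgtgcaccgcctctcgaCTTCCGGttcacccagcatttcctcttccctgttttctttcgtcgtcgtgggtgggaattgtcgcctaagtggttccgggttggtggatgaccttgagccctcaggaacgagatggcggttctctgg

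ATP5ME, with the highest ratio in sensitive cells in coculture, and SDHD, with the lowest, both held the NRF1 core and the ETS letters, and SDHB held all 3. The windows of ATP5F1E, ATP5MPL and NDUFB1, members called higher there, and of NDUFB3 and NDUFV2, called lower there, held none of the letters, and neither did those of ATP5MC2, NDUFB6 and SDHA. A promoter window was found for 71 of the 86 nuclear subunits. The NRF1 core was in 15.5% of them against 3.05% of all 35116 windows, the ETS letters in 28.2% against 10.3%, and the YY1 letters in 16.9% against 2.89%. Those windows are of all genes in the RefSeq table and were not matched to the subunits in gene type, level or base composition. Whether the difference is particular to respiratory genes was therefore not tested. A match describes letters only.

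The other 5 members called lower in sensitive cells in coculture were NDUFB5, NDUFB3, NDUFV2, UQCRC2 and COX7A2L. NDUFB5 of complex I was at 201 CPM in sensitive monoculture and 128 in sensitive coculture cells, and at 170 and 134 CPM in the resistant pair, a log2 ratio of -0.64 (interval -0.68 to -0.61) and of -0.34. NDUFB5 was the 1 nuclear subunit called lower in coculture in both lineages on the main scale. NDUFB3, another accessory subunit of complex I, was at 176, 131, 131 and 124 CPM, highest in sensitive monoculture cells, with log2 ratios of -0.42 in sensitive cells in coculture, -0.51 between monocultures and 0.087 in resistant cells in coculture. UQCRC2, a core protein of complex III, COX7A2L, which takes part in joining complexes III and IV, and NDUFV2, an iron-sulfur subunit at the NADH end of complex I, had log2 ratios of -0.42, -0.41 and -0.35 in sensitive cells and of -0.30, -0.17 and -0.30, not called, in resistant cells. With TMM factors UQCRC2 and NDUFV2 were both at -0.37 in resistant cells, past the limit, and NDUFV2 was at -0.32 in sensitive cells, just inside it. COX7A2L and UQCRC2 were named after their values were seen. NDUFS4, an accessory subunit of complex I, was at 103, 91.0, 107 and 133 CPM, with -0.31 in resistant cells in coculture, just inside the limit, and -0.38 with TMM factors.

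Between the monocultures, resistant cells were higher than sensitive ones in 10 of the 37 complex I subunits and lower in 2 (16.3% and 25.7% of all genes). Per nuclear UMI 5 were higher and 3 lower (13.2% and 31.9% of all genes). In cells with a mitochondrial share under 20% the counts were 6 and 2 (13.3% and 27.6%). Without the mitochondrial limit they were 14 and 0 (22.3% and 25.2%), so they depended on the scale and on the cells kept. Within the coculture 1 complex I subunit was higher and 0 lower (7.21% and 9.72% of all genes). NDUFB6 was at 176 and 182 CPM in the sensitive populations and 239 and 238 CPM in the resistant ones, with no overlap between lineages, and was higher by 0.43 between monocultures and 0.39 within the coculture. COX5B of complex IV was at 679 CPM in both sensitive populations and at 872 in resistant coculture and 824 in resistant monoculture cells, higher by 0.28, not called, and 0.36. With TMM factors the first became 0.39, past the limit. ATP5F1E was higher by 0.50 and 0.32, the latter 0.30 per nuclear UMI, inside the limit. In the other direction, ATP5F1B, the catalytic beta subunit, was at 769, 696, 567 and 607 CPM, with log2 ratios of -0.34 between monocultures and -0.30, not called, within the coculture. Between monocultures it came to -0.23 with TMM factors, -0.26 without the mitochondrial limit on cells and -0.31 in G1 cells, inside the limit for a call, and within the coculture it was -0.33 per nuclear UMI, past it. NDUFS5 was at 550, 654, 532 and 496 CPM, with -0.15 and -0.30, neither called, the latter -0.33 per nuclear UMI.

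ATP5MC1, ATP5MC2 and ATP5MC3 are separate genes that encode the same mature subunit c of the ATP synthase ring. Whether reads of similar stretches were split among them was not tested. ATP5MC2 was at 471 and 388 CPM in sensitive cells and 354 and 333 CPM in resistant cells, with -0.50 between monocultures. ATP5MC1 stayed between 506 and 556 CPM and ATP5MC3 between 638 and 700 CPM, and neither was called. Without the mitochondrial limit on cells, ATP5MC2 came to -0.29 and NDUFB3 to -0.30 between monocultures, inside the limit for a call.

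Across the cell cycle phases given in the deposited annotation, the mitochondrial mRNAs were lower in S and G2M cells than in G1 cells in all 4 populations. The summed share in G1, S and G2M was 20.7%, 17.1% and 17.6% in sensitive monoculture cells, 18.9%, 16.1% and 16.4% in sensitive coculture cells, 17%, 15.2% and 14.8% in resistant coculture cells, and 17.4%, 15.1% and 14.7% in resistant monoculture cells. Phases of a population share its library. Of the 13 mRNAs, 12 were lower in every population in S and 12 in G2M, beside 28.9% and 23.1% of all genes. The exception was MT-ND6, with log2 ratios of 0.10, 0.21, 0.27 and 0.23 in S and -0.19, 0.072, 0.21 and 0.24 in G2M. Lower past the limit in S were 2 mRNAs in each sensitive population and 0 in the resistant ones, beside 14.8%, 5.83%, 4.37% and 3.63% of all genes. In G2M they were 3, 0, 1 and 2, beside 15.8%, 7.36%, 5.69% and 4.19% of all genes. Per nuclear UMI the counts were 6, 4, 0 and 0 in S (19.8%, 8.40%, 5.88% and 5.18% of all genes) and 5, 3, 1 and 3 in G2M (19.2%, 9.66%, 7.43% and 5.87%). In cells with a mitochondrial share under 20% the S over G1 ratio of the sum was still below 0, at -0.19, -0.11, -0.080 and -0.10, which is smaller than the -0.28, -0.23, -0.16 and -0.21 over all kept cells. The G2M over G1 ratio in those cells was -0.21, -0.089, -0.11 and -0.13, against -0.24, -0.21, -0.20 and -0.24 over all kept cells. The S and G2M groups of the sensitive monoculture held 176 and 190 cells, against 1540 to 2162 in the resistant populations.

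**Figure D5:**
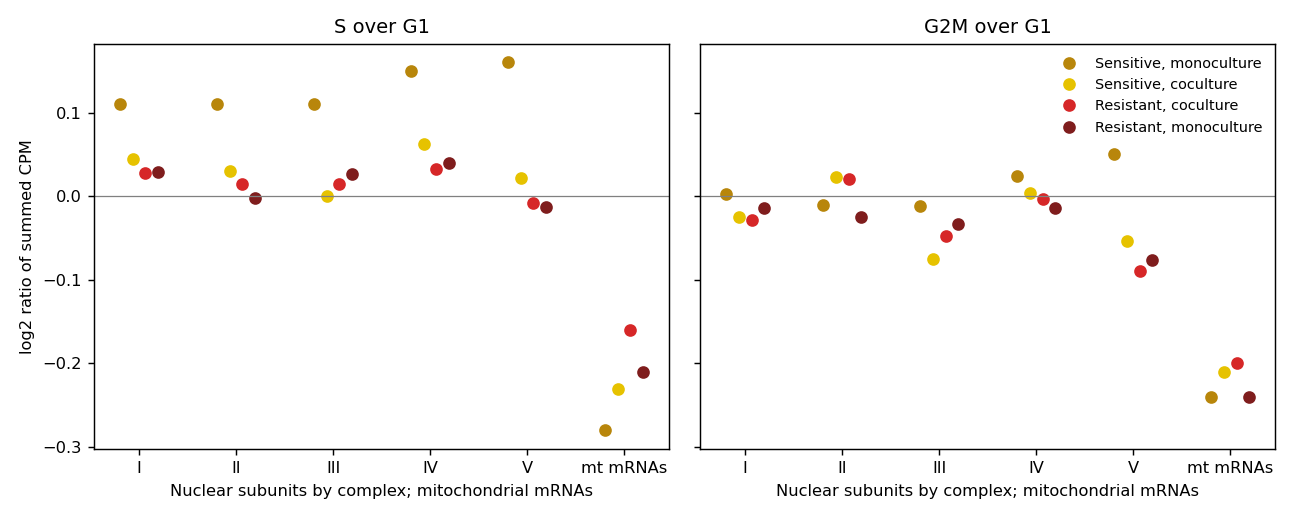
Log2 ratio of summed CPM in S over G1 (left) and G2M over G1 (right) for nuclear subunits by complex and for the mitochondrial mRNAs, 1 point per population. The mitochondrial points lie between -0.28 and -0.16 in S, below every nuclear sum.

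Few nuclear subunits passed the limit between phases. In sensitive monoculture cells, however, 67 of the 79 were above 0 in S over G1. Their median there was 0.11, against 0.017 for all genes, and per nuclear UMI 0.048 against -0.047. The S over G1 ratio of their sum was 0.13, 0.038, 0.017 and 0.021 in the 4 populations. On the main scale 0 subunits were called in S over G1 in any population, where 17.6% of all genes were higher and 14.8% lower in sensitive monoculture cells, 13.9% and 5.83% in sensitive coculture cells, 12.3% and 4.37% in resistant coculture cells, and 13.2% and 3.63% in resistant monoculture cells. In G2M over G1, 1 subunit was called lower in sensitive monoculture cells and 0 elsewhere, against 23.1% and 15.8%, 17.1% and 7.36%, 17.5% and 5.69%, and 19.5% and 4.19% of all genes in the same order. That subunit was NDUFA3 of complex I, with ratios of -0.37, -0.27, -0.26 and -0.22 in the 4 populations. Per nuclear UMI, sensitive monoculture cells had 1 subunit called lower in S (ATP5MC2 at -0.32) and 2 in G2M (NDUFA3 at -0.43 and NDUFA1 at -0.34), beside the 19.8% and 19.2% of all genes given above, and the other populations had 0. CYC1, the cytochrome c1 of complex III, had the highest mean ratio in S over the 4 populations among subunits of at least 50 CPM. It was at 479 CPM in G1 and 597 in S for sensitive cells in monoculture and 425 and 489 in coculture. In resistant cells it was at 514 and 604 in monoculture and 427 and 491 in coculture. It was higher in S in 4 of 4 populations, by 0.32, 0.20, 0.20 and 0.23, of which the first lies just under the limit before rounding. SDHA was also higher in S in each (0.19, 0.25, 0.17 and 0.18), NDUFB11 and ATP5MC3 likewise (means 0.18 and 0.17), and ATP5MC2 was lower (-0.26, -0.24, -0.14 and -0.18), as were NDUFA2 and NDUFA5 (means -0.13 and -0.11). In G2M, CYC1 again had the highest mean (0.20). NDUFA10 and NDUFA6 were slightly higher there (means 0.14 and 0.13) and NDUFA1 and UQCR11 lower (means -0.23 and -0.19) in all 4. Of the 79 subunits, 44.3% were above 0 in S in all 4 populations, against 40.1% of all genes, and 41.8% were below 0 in G2M in all 4, against 23.1% of all genes.

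Among kept cells of a population, the mitochondrial share of a cell was only weakly related to its nuclear subunits. Nuclear subunits took a median of 4.95% and 5.68% of nuclear UMIs per cell in sensitive cells and 5.78% and 5.27% in resistant cells. Spearman's rho with the mitochondrial share was 0.053 in 3329 cells, 0.072 in 2059, 0.088 in 6292 and 0.11 in 7557, both being shares of the same cell's counts. Over the barcodes of 30% or more that were not kept, nuclear subunits took 3.72% of summed nuclear UMIs in the sensitive monoculture, against 5.11% in its kept cells, and 4.15% against 5.31% in the resistant monoculture. Over the authors' clusters with at least 50 cells, the summed mitochondrial share ran from 17.4% to 21.5% in 5 clusters of sensitive monoculture cells and from 12.8% to 19.2% in 9 clusters of resistant monoculture cells. MT-ND3 took 13.7% to 19% of mitochondrial mRNA in every cluster of coculture cells and 7.42% to 12.6% in every cluster of monoculture cells, with no overlap, though clusters of a population share its library.

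Genes that build and serve the chain were described from 7 lists, whose counts stand beside 12.8% of all genes higher and 19.5% lower in sensitive cells in coculture, and 16.3% and 25.7% between monocultures. In resistant cells in coculture 9.25% of all genes were higher and 2.61% lower, with a median of 0.0068. There assembly factors had 4 higher and 0 lower of 42 (median -0.084). Mitochondrial genome and RNA genes had 2 and 0 of 20 (-0.10), and nuclear regulators 2 and 0 of 8 (0.15). Electron carriers and exchangers had 0 and 3 of 22 (-0.18) and hypoxia-linked genes 0 and 0 of 5 (-0.032). Mitochondrial ribosome proteins had 2 and 3 of 71 (-0.12). Assembly factors of the complexes (40 counted) had 6 higher and 5 lower in sensitive cells in coculture and 9 higher and 4 lower (of 41) between monocultures, with medians of -0.066 and 0.035. PET100, an assembly factor of complex IV, was at 121, 209, 231 and 157 CPM, and NDUFAF2 of complex I was at 102, 161, 180 and 132 CPM, both highest in the coculture library. TTC19 and TIMMDC1 had the lowest ratios in sensitive cells in coculture (-0.49 and -0.48). NDUFAF3 and UQCC3 were the highest between monocultures (0.75 and 0.71) and COX14 and TTC19 the lowest (-0.65 and -0.59).

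Genes of mitochondrial genome copying, transcription and RNA processing (23 counted) had 2 higher and 2 lower in sensitive cells in coculture, with a median of -0.018, and 4 higher and 2 lower of 22 between monocultures, with a median of -0.016. SLIRP, which with LRPPRC protects mitochondrial mRNAs, was at 224, 369, 387 and 309 CPM, and LRPPRC at 48.7, 61.6, 61.0 and 48.0 CPM, both above their monoculture in each lineage. MTERF2 and MTERF3 were lower (-0.57 and -0.55). TFB2M, a mitochondrial transcription factor, followed the lineage, at 13.6 and 12 CPM in sensitive and 21.6 and 22.7 CPM in resistant populations. Among 8 nuclear regulators, 1 was higher and 0 lower in sensitive cells in coculture, and 1 of 7 was higher and 1 lower between monocultures, with medians of 0.026 and -0.19. NFE2L2 (0.34) and PPRC1 (0.17) had the highest ratios and MYC (-0.23) and ESRRA (-0.15) the lowest, and MYC had -0.59 between monocultures, where GABPB1 was highest (0.41), with YY1 at -0.23 and ESRRA at 0.049.

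Electron carriers, coenzyme Q genes and exchangers (21 counted) had 1 higher and 4 lower in sensitive cells in coculture, with a median of -0.021, and 6 higher and 3 lower of 22 between monocultures, with a median of 0.042. SLC25A4, which exchanges ADP and ATP across the inner membrane, was at 155, 79.2, 84.8 and 103 CPM, with log2 ratios of -0.96 in sensitive cells in coculture and -0.58 between monocultures. ETFA, an electron-transferring flavoprotein, had -0.48 and -0.39. ATP5IF1 was at 388, 507, 367 and 339 CPM, higher in sensitive coculture cells than in the other 3 populations. UCP2 had ratios of 0.28 and 0.54 and COQ3 was 0.54 higher between monocultures. Of 5 hypoxia-linked genes counted, 0 were higher and 2 lower in sensitive cells in coculture, and 1 higher and 2 lower between monocultures, with medians of 0.038 and -0.056. ISCU, the iron-sulfur cluster scaffold, was at 137, 90.4, 75.6 and 81.7 CPM, BNIP3L had -0.63 in sensitive cells in coculture, and BNIP3 was 0.61 higher between monocultures. HIGD1A had 0.21 in the former and LONP1 0.18 in the latter, neither called.

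Mitochondrial ribosome proteins (71 counted) had 5 higher and 6 lower in sensitive cells in coculture, with a median of 0.0084, and 15 higher and 5 lower between monocultures, with a median of 0.12. MRPL52 (0.64) and MRPL23 (0.52) were the highest and MRPL39 (-0.59) and MRPL15 (-0.47) the lowest in coculture, and MRPL23 (0.92), MRPL11 (0.84), MRPL33 (-0.67) and MRPL42 (-0.65) stood at the ends between monocultures. Genes that mark RNA quality and handling stress were also counted, 9 in each comparison. In sensitive cells in coculture 1 was higher and 2 lower, near the shares of all genes (12.8% and 19.5%), with a median of -0.15. Between monocultures 1 was higher and 5 lower (16.3% and 25.7% of all genes), with a median of -0.33. In resistant cells in coculture 3 were higher and 1 lower (9.25% and 2.61% of all genes), with a median of 0.26. MALAT1, a nuclear RNA, was at 54500, 34700, 45300 and 43400 CPM, HSPA1A at 347, 259, 215 and 269 CPM and NEAT1 at 3780, 3990, 3100 and 2520 CPM. DNAJB1 had ratios of 0.45 and 0.10, EGR1 of 0.28 and 0.44 and HSPA1B of -0.026 and -0.68. Their part in the values above was not tested.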

How the data were processed

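The 3 libraries of frozen and thawed CAMA-1 spheroid cells (10X Genomics single-cell kit) were 1 per condition. The authors aligned the reads to GRCh37 and counted UMIs per gene and barcode with Cell Ranger 3.0.2, and deposited the counts without normalization. Their deposited annotation gives each kept cell's counts, S and G2M score, mitochondrial percent, phase, cluster and population. They kept cells with 3000 to 7000 genes, 2000 to 60000 UMIs and a mitochondrial share under 30%, and per their methods removed doublets predicted by scrublet. Barcodes within these limits but not kept numbered 9 in the sensitive monoculture, 4013 in the coculture and 0 in the resistant monoculture. Removal of doublets therefore does not show in the annotation of the resistant monoculture, and covers at most 9 of these barcodes in the sensitive monoculture. No doublet caller was run here, and cells of 45000 UMIs or more were left out as an alternative, as were cells with fewer than 2 transgene UMIs, a filter the methods name but the annotation does not show.

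Counts were added up by population, phase or cluster and scaled to CPM of all rows with a symbol. Rows without one held 0.523% to 0.591% of UMIs. Log2 ratios used CPM + 1. Intervals of counts were exact Poisson or conditional binomial intervals at 95%, and PCR and cell-to-cell spread are outside them. The exact binomial interval of a share of cells takes the cells of 1 library as independent draws. No test between conditions was made. TMM factors (edgeR 4.0.16) served as scaling only. Calculations used Python 3.11.15, scipy 1.17.1 and R 4.3.3. The ratios were also computed on simulated Poisson counts with known folds. That simulation held no spread between libraries or cells, so it bears on the arithmetic only. The counts come from the 3' end and are not scaled by length, so levels are compared within a gene only. Sequences and coding lengths came from reference files, not from reads.

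Members and lists were chosen with earlier results of these data known. Named were all 13 mitochondrial mRNAs, complex II, CYC1 and genes with a tissue-restricted partner, in each comparison and phase the 3 highest and 3 lowest nuclear subunits of at least 50 CPM, and the 2 highest and lowest of each list.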

Additional observations from a re-analysis of the deposited data

How the results depend on the processing

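Each comparison rests on 1 library per condition, and the cause of no change below was tested. No paired analysis was possible because each group had 1 sample. Values are log2 ratios in the order sensitive coculture over monoculture, resistant coculture over monoculture, resistant over sensitive monoculture, and resistant over sensitive within coculture. The summed mitochondrial mRNAs (-0.20, -0.016, -0.33 and -0.14) became -0.25, -0.019, -0.40 and -0.17 on the scale of nuclear UMIs, -0.18, -0.088, -0.22 and -0.13 with TMM factors, -0.13, -0.035, -0.25 and -0.15 in G1 cells, -0.22, 0.016, -0.39 and -0.16 in cells with at least 2 transgene UMIs, -0.11, -0.013, -0.12 and -0.022 in cells with a mitochondrial share under 20%, and -0.20, -0.025, -0.34 and -0.17 in cells with fewer than 45000 UMIs. The mean of per-cell CPM gave -0.19, -0.33 and -0.16 in the first, the third and the fourth comparison. Removing 10% resistant coculture RNA gave -0.19 and -0.16 in the first and the fourth, and lifting the mitochondrial limit gave -0.63 in the third. Without MT-ND3, an alternative chosen after seeing the data, the values were -0.31, -0.12, -0.38 and -0.19. The median of the nuclear subunits (-0.0029, 0.030, 0.052 and 0.043) changed sign or moved beyond its counting interval in these cases: -0.050, -0.020 and 0.014 on the scale of nuclear UMIs in the first, the third and the fourth comparison, -0.042 and 0.16 with TMM factors in the second and the third, -0.041 and -0.011 under 20% mitochondrial share in the first and the third, 0.21 without the mitochondrial limit in the third, and 0.010 and 0.028 without the 10 CPM filter in the second and the third. With coding lengths over 300 nucleotides, also chosen after seeing the data, it was -0.094 and -0.078 in the first and second. TMM factors moved the median of all genes between monocultures from -0.068 to 0.041.

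Counts of subunits past the limit that changed by more than 1.5 times were, on the scale of nuclear UMIs, 13 lower in place of 7 in the first comparison, 8 higher in place of 14 in the third and 3 lower in place of 1 in the fourth (11.4% of all genes). With TMM factors they were 9 lower in place of 1 in the second, 22 higher in place of 14 and 4 lower in place of 8 in the third, and 0 lower in place of 1 in the fourth (8.91%). Over other sets of cells, an alternative for the counts chosen after seeing the data, they were 31 higher in place of 14 and 1 lower in place of 8 in the third without the mitochondrial limit (22.3% and 25.2% of all genes), 2 lower in place of 1 in the second with at least 2 transgene UMIs (3.16% of all genes), and in the fourth 0 lower in G1 cells (10.8% of all genes), 4 under 20% mitochondrial share (10.9%) and 3 with 10% resistant coculture RNA removed (11.3%), in place of 1 (9.72%). Over 300 nucleotides, 57 subunits were counted in place of 79. Of these, 1 was higher in the first (in place of 13), 0 in the second (9) and 7 in the third (14). In the third, 1049 of 6504 nuclear genes of that length were higher. Counts of mitochondrial mRNAs were 4 lower in place of 1 with TMM factors in the second (7.69% of all genes), 0 higher in place of 3 and 9 lower in place of 5 without the mitochondrial limit in the third, and 3 lower in place of 5 and 0 in place of 2 under 20% in the third and the fourth. Of 259 values past the limit in nuclear genes, 239 stayed past it in the same direction under the alternatives and 20 fell below it. For single mitochondrial mRNAs, 176 of 189 stayed and 13 fell below it. The nuclear genes tallied were the highest and lowest of each comparison, complex II, CYC1, COX7A2L and UQCRC2. Other genes named above, such as UQCR10, were left out. Most were chosen for extreme ratios, so how many stayed is no measure of stability. Values that newly passed the limit were outside both tallies. MT-ATP8 between monocultures was 0.0010 without the mitochondrial limit, SDHD -0.16 and SDHB -0.22.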
